A study of Mus musculus with 4 samples.

Results

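The 58 clustered protocadherin genes lie in 1 stretch of mouse chromosome 18 (36930285 to 37841873, mm10), and CTCF was mapped along them in cardiac myocytes. Genes were chosen by symbol, as Pcdha, Pcdhac, Pcdhb, Pcdhga, Pcdhgb or Pcdhgc followed by a number. The annotation holds 21887 protein-coding genes, among them all members but Pcdhgb8, which it lists as a transcribed pseudogene. CTCF regions were chosen by position, with the summit inside the clusters or within 300 kb of them. This gave 22 of 16128 regions in the library labelled CTCF knockout and 27 of 20043 regions in the control library. The read-through genes Gm37013, Gm38666 and Gm38667, which span from alpha exons to the gamma end, were left out by the symbol rule.

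Both libraries were chromatin immunoprecipitations (ChIP-seq) with a CTCF antibody, made from myocytes of the left ventricle of C57BL/6 mice. The groups carried the labels CTCF_knockout and control, and each was 1 library from a pool of 3 hearts. An input sample of each genotype was not analysed here. The labels give no age, Cre driver or time after deletion, and neither expression nor cell type markers are measured by these files. There was no replicate, so differences between genotypes were not tested, and every interval given below covers counting error only. CTCF protein was not measured, and the library labelled knockout still held many CTCF regions. Within a pool, fewer cells with CTCF at a site and less CTCF at that site in each cell cannot be told apart.

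Clustered protocadherins are cadherin-type adhesion proteins of the cell surface, best known from neurons, where each cell uses its own few members and so tells its own branches from those of others. In the alpha and gamma clusters every variable exon has its own promoter and is spliced to constant exons shared at the end of the cluster, whereas beta genes each have a single coding exon. Most of these promoters carry a conserved sequence element that CTCF binds, and CTCF with cohesin joins promoters to distant enhancers in loops. One such enhancer, known as HS5-1, lies beyond the alpha constant exons, and other regulatory elements lie beyond the gamma cluster. Pcdhac2, Pcdhb1, Pcdhgc4 and Pcdhgc5 are known as the members whose promoters lack the conserved element.

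CTCF was unevenly placed along the clusters, and the gamma part held most of it. In the gamma part (37661775 to 37841873, 22 genes) 9 regions were called in the library labelled knockout and 12 in the control library. The alpha part (36930285 to 37188897, 14 genes) held 0 regions in either list. In the beta part (37264998 to 37521419, 22 genes) the library labelled knockout had 0 regions and the control library had 2. A list of called regions holds only sites above the caller's threshold, so weaker binding in the alpha and beta parts would not be seen.

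Per 100 kb the gamma part held 4.997 regions in the library labelled knockout and 6.66 in the control library. The rest of chromosome 18, counted up to its last region, held 0.498 regions per 100 kb in the library labelled knockout and 0.616 in the control library. On the autosomes together the density was 0.643 in the library labelled knockout and 0.801 in the control library. As a description, the autosomes were also divided into 13642 consecutive stretches of the same length as the gamma part. At least as many regions as in the gamma part were found in 90 stretches (0.660%) in the library labelled knockout and in 38 (0.279%) in the control library. These shares carry no test, and gene starts are themselves dense in the gamma part. The median stretch held 0 regions in the library labelled knockout and 1 in the control library. Per 100 kb the beta part held 0 in the library labelled knockout and 0.780 in the control library, the latter near the autosomes. The absence of regions from the alpha part is therefore not read as a depletion.

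**Figure D1:**
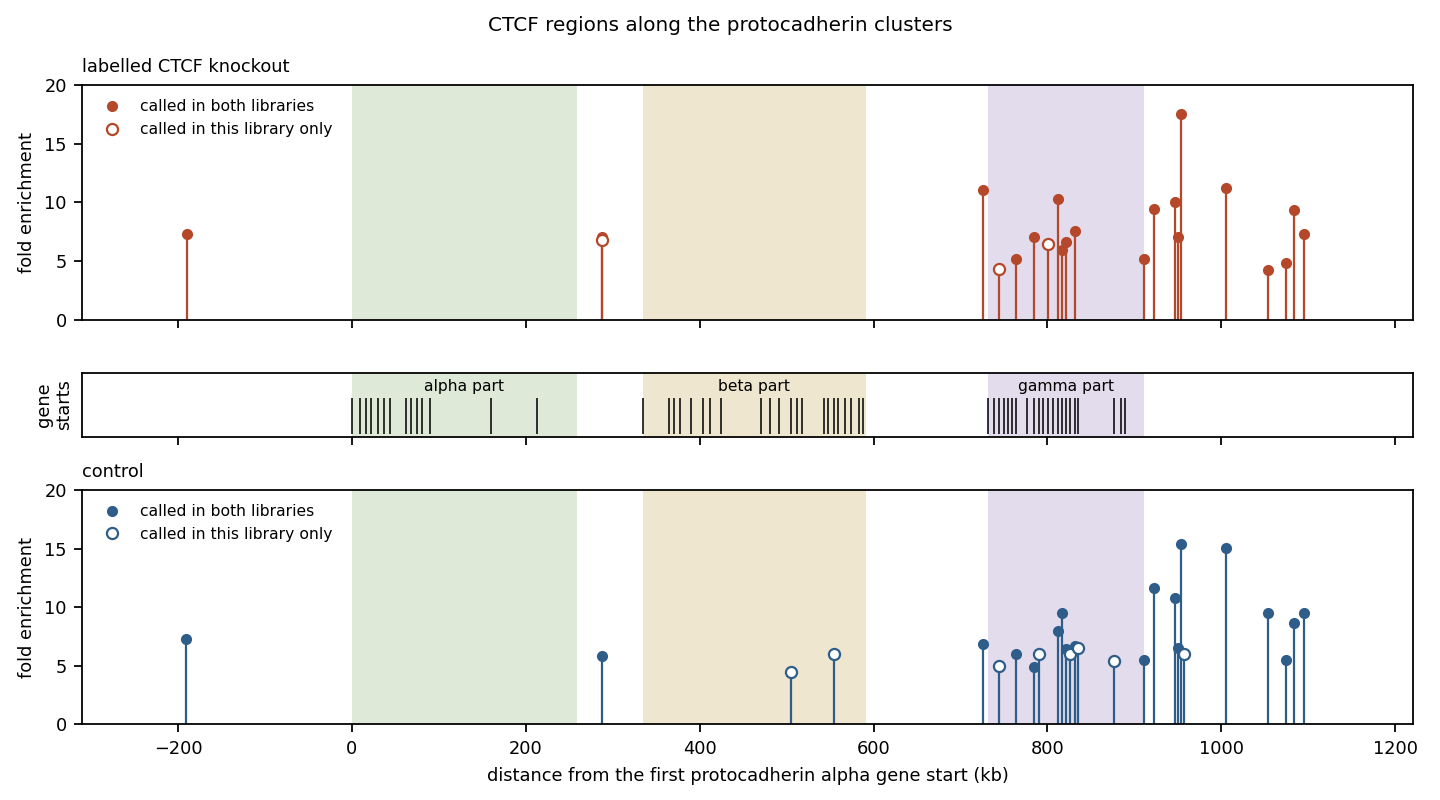
Fold enrichment of each CTCF region (vertical axis, the authors' ratio over the background of the same library) against its distance from the first alpha gene start in kb, for the library labelled CTCF knockout (above) and the control library (below). Each vertical line with a point is 1 region, open points were called in 1 library only, ticks between the panels are the 58 gene starts, and the shaded alpha part is empty in both libraries while the gamma part holds 9 and 12 regions.

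Regions were next set beside gene starts, since the promoter of each variable exon lies there. A gene was counted when a summit lay within 1 kb of its start. In the library labelled knockout 8 of 58 genes had such a region (13.8%), and in the control library 13 of 58 did (22.4%). Over 17492 protein-coding genes with a start in a RefSeq promoter table the share was 9.21% in the library labelled knockout and 13.2% in the control library. The measures differ in part, because any start listed for a gene could count there, against 1 start for each protocadherin. That table held 0 of the 58 members. All 8 genes in the library labelled knockout were gamma genes, and 11 of the 13 in the control library were. Hence 36.4% of the 22 gamma starts had a region in the library labelled knockout and 50% in the control library. No alpha start had one in either library, and 44 of the 58 genes had none in either.

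Each type of gamma gene had marked starts. Among the 12 gamma A genes 4 had a region at the start in the library labelled knockout and 6 in the control library. Of the 7 gamma B genes 4 had one in each library, with 3 of them the same. Among the 3 gamma C genes the library labelled knockout had 0 and the control library 1, Pcdhgc3. The remaining gamma C genes, Pcdhgc4 and Pcdhgc5, belong to the 4 members known to lack the conserved element. None of these 4 had a region at its start in either library, but 40 of the other 54 members also had none.

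**Figure D2:**
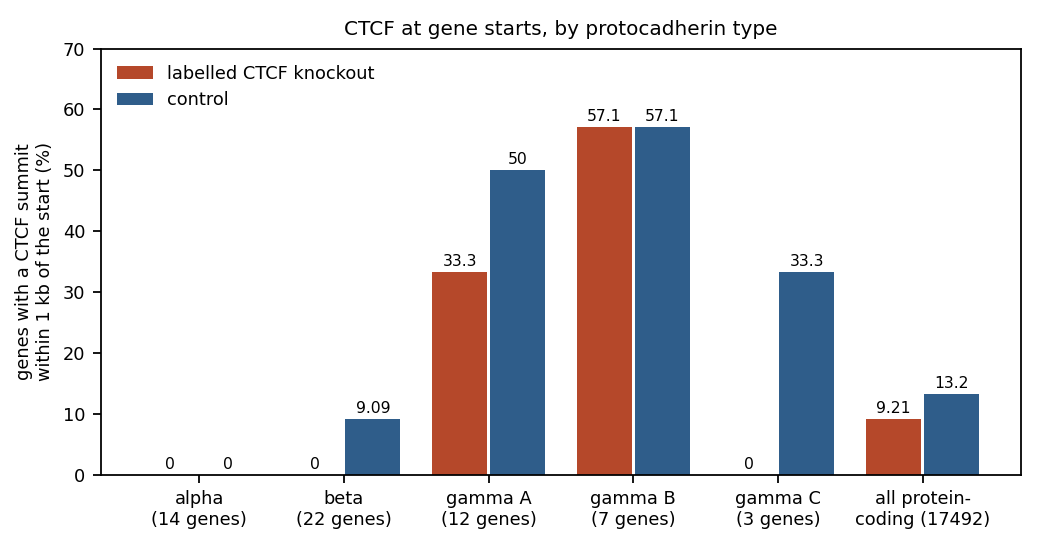
Percentage of genes with a CTCF summit within 1 kb of the start (vertical axis, from 0) by protocadherin type and for all protein-coding genes with a start in the promoter table, in the library labelled CTCF knockout (left bars) and the control library (right bars). The alpha genes stand at 0 in both libraries and the gamma A and gamma B genes between 33.3% and 57.1%.

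The marked gamma starts were then counted along the gamma part. Of the last 11 starts in genome order 5 had a region in the library labelled knockout and 7 in the control library. Of the first 11 starts 3 had one in the library labelled knockout and 4 in the control library, and this difference along the cluster was not tested. An unbroken run of 3 genes, Pcdhgb6 to Pcdhgb7, was marked in the library labelled knockout, and a run of 7 genes, Pcdhgb6 to Pcdhgc3, in the control library. Neighbouring marked starts had summits a median of 11.1 kb apart in the library labelled knockout and 5.81 kb apart in the control library.

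Summits lay close to the gamma starts and mostly just before them. Their median position relative to the start was -42 bp in the library labelled knockout (range -110 to 223) and -62 bp in the control library (range -144 to 349). Within 150 bp before the start lay 7 of the 8 summits in the library labelled knockout and 9 of the 11 in the control library. Over protein-coding genes with a summit within 1 kb of the start, 29.4% of the summits in the library labelled knockout and 27.6% of those in the control library lay within 150 bp before it. Start positions of the protocadherins are the lower-coordinate ends of their annotated spans, because the alpha genes and the gamma genes share their other end.

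**Figure D3:**
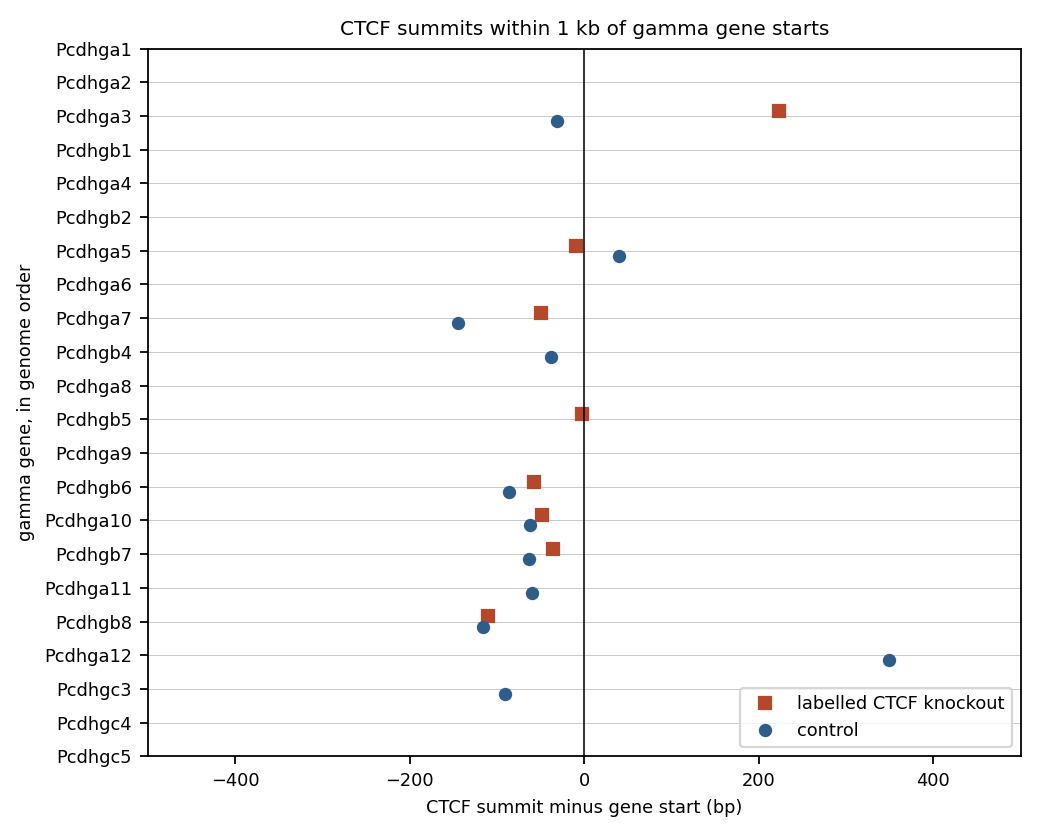
Position of each CTCF summit relative to the gene start in bp (horizontal axis, 0 is the start) for the 22 gamma genes in genome order from top to bottom, with squares for the library labelled CTCF knockout and circles for the control library. Most points lie just left of 0, between -144 and 40, and the exceptions are Pcdhga3 in the library labelled knockout (223) and Pcdhga12 in the control library (349).

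The strengths of these regions are given as the authors' fold enrichment and as the number of reads at the summit, called the pileup, which was recovered from the deposited fold enrichment and −log10 p. The region at Pcdhgb6 (37741944 to 37742105 in the control list) had a pileup of 18 reads in the library labelled knockout (exact Poisson 95% interval 10.7 to 28.4) and 15 in the control library (8.40 to 24.7). Its fold enrichment was 10.3 in the library labelled knockout and 7.98 in the control library, each relative to its own background. This was the strongest gamma region in the library labelled knockout.

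At Pcdhga10 the pileup was 10 reads in the library labelled knockout and 21 in the control library (37746782 to 37747166), and the fold enrichment was 5.94 in the library labelled knockout and 9.49 in the control library. This was the strongest gamma region in the control library. The ratio of pileups, library labelled knockout over control, was 0.476 with an exact 95% interval of 0.20 to 1.06. Over all 13832 control regions called in both libraries the median ratio was 0.867, which lies inside that interval, so a difference from other regions was not detectable at this depth.

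A further 4 gamma starts were called in both libraries by overlapping regions. Pcdhgb7 had 16 reads in the library labelled knockout and 14 in the control library, and the pseudogene Pcdhgb8 had 13 in the library labelled knockout and 18 in the control library. Pcdhga7 had 12 reads in the library labelled knockout and 9 in the control library, and Pcdhga5 had 11 in each. The intervals of the libraries overlapped at each of these genes. At the shared 3′ end of the gamma genes, 376 bp before it in the control library, a region had 9 reads in the library labelled knockout and 10 in the control library.

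Several gamma starts were called in 1 library only. Pcdhgb5 had a region only in the library labelled knockout, with 11 reads and a fold enrichment of 6.48. Pcdhgb4, Pcdhga11, Pcdhga12 and Pcdhgc3 had one only in the control library, with 11, 11, 12 and 13 reads and fold enrichments of 5.98, 5.98, 6.48 and 5.42. Pcdhga3 had a region in each library, with 7 reads in the library labelled knockout and 9 in the control library, but the regions did not overlap and their summits lay 254 bp apart. Of the 11 control regions at gamma starts 6 were called in both libraries (54.5%). At the same control fold enrichment, all control regions gave 60.1%. Of the 8 regions at gamma starts in the library labelled knockout 2 had no control region (25%), against 14.2% of that whole list. The median pileup was 14 reads over the list labelled knockout and 15 over the control list, and the lowest called was 6 in each.

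Both beta regions lay at gene starts and were called only in the control library. At the same control fold enrichment, 46.0% of all control regions were called in both libraries. The one at Pcdhb12 (37435559 to 37435694) had 8 reads and a fold enrichment of 4.49, above that of 7.82% of the control list. The one at Pcdhb17 (37484859 to 37485008) had 11 reads and a fold enrichment of 5.98. The other 20 beta genes had no region within 1 kb of the start in either library. Thus 9.09% of beta starts had a region in the control library, against 13.2% of protein-coding genes in the promoter table. Variable exons of protocadherins resemble each other, and how reads that map to several of them were treated is not given in the sources used here.

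Regions also lay between the parts. Beyond the end of the alpha part, by 28.6 kb in the control library, a region was called in both libraries (37217390 to 37217572 in the control list), with 12 reads in the library labelled knockout and 11 in the control library. A neighbouring region with 13 reads (37218314 to 37218468) was called only in the library labelled knockout, with its summit 989 bp from that of the first. HS5-1 is known to lie on this side of the alpha cluster, but the annotation used here does not place it, so whether these regions are that enhancer was not tested.

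Before the first gamma gene, by 6.17 kb, a region was called in both libraries (37655487 to 37655699 in the control list). It had 20 reads in the library labelled knockout and 15 in the control library, with a fold enrichment of 11.1 in the library labelled knockout and 6.90 in the control library. Its fold enrichment was above that of 87.2% of the list labelled knockout and 47.0% of the control list. The ratio of pileups, library labelled knockout over control, was 1.33 with an exact 95% interval of 0.649 to 2.80.

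The strongest regions of the neighbourhood lay beyond the gamma cluster, in and beside Diaph1, the gene of a formin that nucleates actin filaments. Within 300 kb after the gamma end 9 regions were called in the library labelled knockout and 10 in the control library, against 1 in each library within 300 kb before the alpha cluster, at Tmco6. Per 100 kb the flank after the gamma end held 3 regions in the library labelled knockout and 3.33 in the control library. These densities too were above those of the autosomes (0.643 and 0.801), so a high density was not particular to the gamma part. The region within Diaph1 at 37883551 to 37883787, 41.8 kb beyond the gamma end, had 33 reads in the library labelled knockout (22.7 to 46.3) and 37 in the control library (26.1 to 51.0). Its fold enrichment was 17.6 in the library labelled knockout, above that of 98.8% of that list, and 15.4 in the control library, above that of 96.9% of that list.

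Some of the other Diaph1 regions differed more in pileup between the libraries. The region at its higher-coordinate end (37935511 to 37935807) had 22 reads in the library labelled knockout and 30 in the control library. The region nearest to the gamma cluster (37852123 to 37852514), 10.5 kb beyond it, had 18 reads in the library labelled knockout and 29 in the control library. Its neighbour at 37877407 to 37877667 had 18 reads in the library labelled knockout and 24 in the control library. A further region had 14 reads in the library labelled knockout and 12 in the control library, and another, with 11 reads, was called only in the control library. Which library had more reads differed between regions of the same gene, and the intervals of the libraries overlapped at each region called in both.

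Farther on, regions lay within and near Arap3 and around the long non-coding gene Gm30093. The region within Arap3 had 12 reads in the library labelled knockout and 21 in the control library, and the region 5181 bp beyond that gene had 8 in the library labelled knockout and 10 in the control library. The region near Gm30093 had 23 reads in the library labelled knockout and 19 in the control library, and the region within it had 14 in the library labelled knockout and 21 in the control library.

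**Figure D4:**
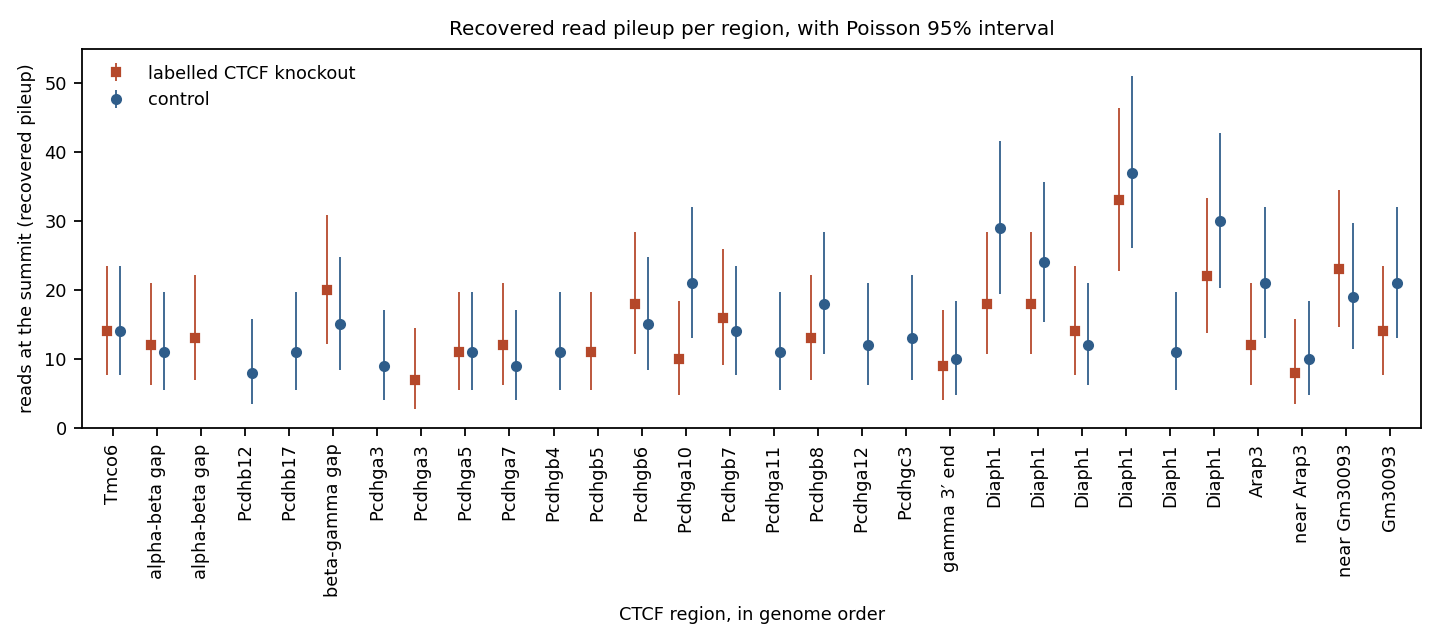
Recovered pileup in reads at the summit (vertical axis, from 0) for the 30 regions of either list in genome order, with squares for the library labelled CTCF knockout, circles for the control library and bars for exact Poisson 95% intervals. Regions called in 1 library have 1 point, and where both libraries have a point their intervals overlap.

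The regions called in both libraries were then counted. Of the 27 control regions 19 shared 1 bp or more with a region called in the library labelled knockout (70.4%, Wilson 95% interval 51.5 to 84.1), against 69.0% of all control regions. With all control regions sorted into 10 equal bins of control fold enrichment and weighted as the 27, the share was 67.7%. The reverse count gave 3 of 22 regions of the library labelled knockout with no control region (13.6%, 4.75 to 33.3), against 14.2% of that whole list. Both shares were therefore near their background.

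Sharing followed strength here. All 13 control regions with a pileup of at least 14 were called in both libraries, and 6 of the 13 with at most 12, limits chosen after the values were seen. Over the whole control list these shares were 88.5% and 35.4%. The control region between these limits, at Pcdhgc3 with 13 reads, was called only in the control library. Inside the clusters 9 of 16 control regions were shared (56.3%, 33.2 to 76.9), and beyond the gamma end 9 of 10 were (90%, 59.6 to 98.2). At the same control fold enrichment, all control regions gave 57.8% for the first and 82.9% for the second. The median control fold enrichment was 5.98 inside the clusters and 9.49 beyond the gamma end, against 6.98 over the control list.

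Ratios of pileups exist only for regions called in both libraries. The 8 regions called only in the control library and the 3 called only in the library labelled knockout are left out. Over the 19 shared regions the pileup was higher in the library labelled knockout at 7, equal at 2 and lower at 10. Their median ratio, library labelled knockout over control, was 0.900 (range 0.476 to 1.33), against 0.867 over all shared regions. All 19 exact intervals included 0.867. The lowest local background of the library labelled knockout was 0.846 of that of the control library. The lists give no depth, and whether this value reflects the relative depth of the libraries was not tested.

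The Hox clusters, another family of neighbouring genes with known CTCF sites, and the rest of chromosome 18 served for comparison. Around the 39 Hox genes, with the same 300 kb flanks, 45 of 63 control regions were shared (71.4%, 59.3 to 81.1). On the rest of chromosome 18, 370 of 549 were shared (67.4%, 63.4 to 71.2). Both shares lay inside the interval of the protocadherin window (51.5 to 84.1), and differences between these sets were not tested.

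Genes known to act on protocadherin promoter choice or on CTCF and cohesin were examined within 10 kb of their spans. Of these 12 genes 8 had a region in the library labelled knockout and the same 8 had one in the control library. Over all protein-coding genes, which differ widely in length, the share with a region in this window was 44.2% in the library labelled knockout and 50.1% in the control library. Near them 11 of 14 control regions were shared (78.6%, 52.4 to 92.4), against 69.0% of all control regions, which lies inside that interval. Stag1, a cohesin subunit gene, had the strongest control region, with a fold enrichment of 7.04 in the library labelled knockout and 12.01 in the control library. Nipbl, the cohesin loader gene, had 8.23 in the library labelled knockout and 9.06 in the control library at its strongest control region. Stag2, another cohesin subunit gene, had 7.56 in the library labelled knockout and 9.97 in the control library, and the strongest region of Smc3, at 10.6, was called only in the control library. Dnmt3b, a DNA methyltransferase gene, had 7.56 in the library labelled knockout and 6.48 in the control library. Setdb1, a histone methyltransferase gene, had 5.13 in the library labelled knockout and 4.82 in the control library at the same region. Ctcf had 2 regions in each library, and both control regions were shared. Its strongest control region had 5.94 in the library labelled knockout and 8.47 in the control library. Among these 12 genes Wiz had the strongest region in the library labelled knockout, at 9.60. The strongest control region of Wiz, at 7.48, had 6.48 in the library labelled knockout. Ctcf, Dnmt3b, Setdb1 and Wiz were picked after their values were seen, and no direction is read from these fold enrichments, each relative to its own library. Smchd1, a gene of a chromatin protein that acts on the clusters in mouse, had no region in either list, nor had Rad21, Smc1a or Wapl.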

How the data were processed

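CTCF ChIP-seq region lists of 1 library labelled CTCF knockout and 1 control library were used; the 2 groups were set by sample title. Bowtie2 2.2.6, SAMtools 0.1.19, MACS2 and the mm10 build are named by the submitters' processing notes; their thresholds and their handling of multiply mapping reads are not given in the labels. The deposited lists give each region a fold enrichment (a ratio over local background), a −log10 p, a −log10 q and a score, the score being unused here; the authors called regions per library.

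Gene spans came from RefSeq GRCm38.p6, which has no strand, so protocadherin starts are lower-coordinate ends. Starts of other genes came from a RefSeq promoter table of the same build. With summits within 1 kb of either gene end instead, as planned without strand, 22 of 58 protocadherins counted in the library labelled knockout and 24 in the control library, because the gamma genes share an end with a region. The shares over all protein-coding genes were then 12.0% and 15.8%.

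Pileups were solved from fold enrichment = (pileup + 1) / (background + 1) and an upper Poisson tail; in each list 100% of regions had a whole pileup that returned their −log10 p to within 0.001. The lists give no depth. Recovery and overlap counting were tested on simulated data. Python 3.11.15, numpy 2.4.6, scipy 1.17.1 and matplotlib 3.10.9 were used. Shares have Wilson 95% intervals, pileups exact Poisson intervals and pileup ratios exact binomial ones. Reads without molecular identifiers are not independent molecules, so all intervals cover counting error only. Every region in the window was named by the nearest protocadherin start, or outside the parts by the nearest gene span or by its distance to a cluster end. The members and lists were chosen with earlier results of these data known. Other settings were a minimum of 5 for −log10 q or for fold enrichment, lists of equal length, other flanks and start windows, a reciprocal overlap of at least 50% and summits within 100 bp. No DNA sequence was used.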

Additional observations from a re-analysis of the deposited data

How the results depend on the processing

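Of 54 recomputed values 49 stayed within 1.5 times (region counts) or within the Wilson interval (shares). Some of these 49 could not move. Stricter thresholds leave a count of 0 at 0, and lists of equal length left the counts of the shorter list, that labelled knockout, unchanged. With no flank the window held 12 regions in the library labelled knockout and 16 in the control library, against 22 and 27; fewer bases were counted. The control library had 1 region in the beta part, against 2, when −log10 q had to reach 5, when fold enrichment had to reach 5 and with lists of equal length, since the weaker one at Pcdhb12 then dropped out. The gamma part held 6 regions in the library labelled knockout and 9 in the control library with the −log10 q threshold. The share of control regions called in both libraries ran from 56.3% with no flank to 75.0% with lists of equal length. The alpha part held 0 regions in both libraries, and the 3 thresholds tried could not change this, since they only remove regions. No paired analysis was possible because only 1 library stood for each genotype. Pileups of 7 to 37 reads in the window limit what can be told apart, and sites below the threshold are not listed.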

Other observations

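Protocadherin genes outside the clusters were also examined, within 10 kb of their spans. Of 12 such genes 4 had a CTCF region in the library labelled knockout and 5 in the control library, and 3 had one in both. Over all protein-coding genes this share was 44.2% in the library labelled knockout and 50.1% in the control library. Near them 4 of 6 control regions were shared (66.7%, Wilson 95% interval 30.0 to 90.3), against 69.0% of all control regions. Pcdh1, which lies beyond the gamma cluster on the same chromosome, had the strongest control region, with a fold enrichment of 6.34 in the library labelled knockout and 10.1 in the control library. Pcdh15, a gene of hair cell tip links, had 8.10 in the library labelled knockout and 9.25 in the control library. Pcdh8 had 6.34 in the library labelled knockout and 8.76 in the control library, and Pcdh7 had a region, at 8.91, only in the control library. Pcdh10, named after its values were seen, had one only in the library labelled knockout, at 6.48, and Pcdh15 had the strongest region in that library.

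The flank limit of 300 kb fell between regions on both sides. After the gamma end the last region inside lay 183 kb away in both libraries, with 14 reads in the library labelled knockout and 21 in the control library. The first one outside lay 303 kb away, with 16 reads in the library labelled knockout and 19 in the control library, and was also called in both. Before the alpha cluster the region inside lay 190 kb away with 14 reads in each library, and the next ones outside lay 389 kb away in the library labelled knockout (10 reads) and 400 kb away in the control library (19 reads), with neither shared.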
